A study of Homo sapiens with 4 samples.

Results

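The sequence described here is the 5' segment of 28S rRNA, positions 7925 to 8359 of the 45S precursor RNA45SN5, taken from the mature 5' end of 28S up to the start of expansion segment ES7L. Its members were chosen by position alone, as all listed positions in that interval. They make up 2.72% of the 15984 listed rRNA positions and 8.58% of the 5070 nt of 28S. Nucleotides (nt) are counted below from the first one of 28S, and the segment was divided into 8 windows of 50 nt and a last window of 35 nt that begins at nt 401. The libraries came from HEK293T, a human embryonic kidney line, with stable overexpression of Flag-SIRT7 (a nucleolar sirtuin) at passages 10 to 15. All 4 libraries are anti-Flag immunoprecipitates of that tagged, overexpressed protein: 2 from the cytosolic and 2 from the nuclear fraction of the lysates. The labels number the libraries of a fraction without naming separate cultures, and a p-value here reflects only how far apart these libraries lie, which could be a technical spread. An input or mock library was not analysed here, so depth is recovered RNA and not enrichment, and the table holds no marker with which to check the cell line or the tagged gene.

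28S is the long RNA of the large ribosomal subunit. In the precursor it follows 5.8S and the spacer ITS2, and once ITS2 has been removed 5.8S stays bound to the first stretch of 28S by base pairing. That first stretch forms much of domain I, one of the conserved domains of the large subunit core, and it borders ES7L, a GC-rich insertion that grew long in vertebrates.

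Some places where depth changes sharply are shown here in the reference letters of the deposited table (T for U, 5' to 3'). In the first 100 nt, capitals mark nt 29 and nt 79, where depth stepped up. In the run from nt 129 to nt 312, where both nuclear libraries lay below both cytosolic ones at every position, they mark a downward step at nt 165 and an upward one at nt 257 and nt 258. In nt 310 to 350 they mark further steps at nt 313, nt 328 to 330 and nt 343 to 344. In the last window they mark nt 420 to 430, the longest stretch that could pair with 5.8S without a gap. In the first 20 nt of 5.8S they mark its partner. The fall at nt 415, the steepest of the segment on the log2 scale, lies in the last window and is left in lower case.
28S nt 1 to 100: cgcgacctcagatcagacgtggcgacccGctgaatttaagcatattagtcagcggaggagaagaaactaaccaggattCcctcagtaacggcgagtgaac
28S nt 129 to 312: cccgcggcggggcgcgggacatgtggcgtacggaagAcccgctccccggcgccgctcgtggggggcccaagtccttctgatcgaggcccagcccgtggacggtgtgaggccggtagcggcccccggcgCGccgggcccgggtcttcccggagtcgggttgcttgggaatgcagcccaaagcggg
28S nt 310 to 350: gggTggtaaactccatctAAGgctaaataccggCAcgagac
28S last window, from nt 401: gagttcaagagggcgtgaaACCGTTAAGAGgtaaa
5.8S nt 1 to 20: cgaCTCTTAGCGGTggatca

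The segment as a whole was well covered and held a similar part of 28S in both fractions. Each position was covered on average by 565625 and 476779 reads in the cytosolic pair against 479473 and 423670 in the nuclear pair, in libraries whose mean over all listed positions was 189023 to 211717. Relative to that library mean, which makes each value a share of rRNA depth, the segment stood at 2.72 and 2.41 in the cytosol against 2.26 and 2.24 in the nucleus. The nuclear values were lower and close to each other, and the cytosolic pair was spread more widely. The log2 difference, nucleus minus cytosol, was -0.19 (SE 0.12, 95% interval -0.53 to 0.15, n = 2 per fraction). It did not pass the test over 11 regions (adjusted p = 0.198 in limma, exact permutation p = 0.333, the smallest that 2 libraries against 2 allow), in which 5 regions or 45.5% passed. Fewer molecules of an RNA, less of it recovered per molecule and a larger share of another RNA cannot be told apart in these shares. The share of 18S was 2.16 and 2.35 in the cytosol against 2.88 and 2.95 in the nucleus. That is a log2 difference of 0.37 (adjusted p = 0.0571 in limma), while 5S and 5.8S differed by -0.95 and -0.56. The effect of the other RNAs on the segment's share was not tested.

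Within 28S the segment's share was alike in both fractions. It held 10.05% and 9.17% of 28S depth in the cytosolic pair against 9.64% and 9.62% in the nuclear pair, so the nuclear pair fell between the cytosolic values. Its mean depth over that of the rest of 28S was 1.19 and 1.08 in the cytosol against 1.14 and 1.13 in the nucleus. The log2 difference of this ratio was 0.0045, against an SD of 0.10 between the cytosolic libraries (exact permutation p = 1). The lower nuclear share of the segment was therefore of the size seen in the rest of 28S, which differed by -0.19 (SE 0.10) and did not pass either (adjusted p = 0.169 in limma).

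The ratio to 5.8S, the RNA that pairs with the segment, separated the fractions without overlap. Depth of the segment over that of 5.8S was 2.83 and 2.73 in the cytosol against 3.12 and 4.18 in the nucleus. Both nuclear ratios were higher, the second clearly more so than the first. On the log2 scale the means were 1.48 ± 0.04 and 1.85 ± 0.30 (SD, n = 2), a difference of 0.38 (exact permutation p = 0.333). The difference was 0.59 without nuclear replicate 1 and 0.17 without nuclear replicate 2, so nuclear replicate 2 carried most of it. Relative depth of 5.8S itself was 0.961 and 0.885 in the cytosol against 0.726 and 0.536 in the nucleus. That is a log2 difference of -0.56 (adjusted p = 0.0721 in limma). The rest of 28S differed by -0.19, as did the segment, so the higher nuclear ratio is not taken as particular to the segment.

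**Figure D1:**
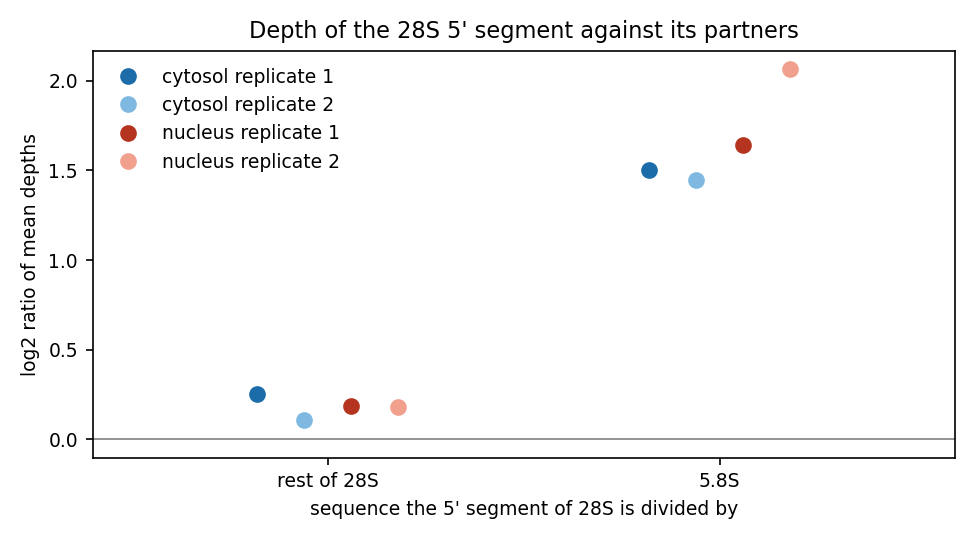
Each point is 1 library, and the vertical axis is the log2 ratio of the mean depth of the 28S 5' segment to that of the rest of 28S (left) or of 5.8S (right). The nuclear points lie between the cytosolic ones on the left and above them on the right, where nuclear replicate 2 reaches 2.06.

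Depth began near zero at the mature end and climbed in steps through the first 164 nt. The last position of ITS2 had 220 and 266 reads in the cytosol against 374 and 284 in the nucleus, and nt 1 of 28S had 243 and 272, and 403 and 307. The boundary itself thus carried no step, with ratios of 1.02 to 1.10 between these neighbours. Depth then rose between nt 6 and nt 12, by 15.4 and 11.02 times in the cytosol against 10.6 and 10.4 times in the nucleus. At nt 50 relative depth was 0.377 and 0.301 in the cytosol against 0.414 and 0.243 in the nucleus. By nt 100 depth was 1729 and 1274 times that of nt 1 in the cytosol against 1053 and 848 times in the nucleus. The first 100 nt held 3.59% to 5.59% of the segment's depth.

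The steepest single step of the segment on the log2 scale fell at the same nucleotide in all 4 libraries. Between nt 28 and nt 29 depth went from 17096 to 43028 reads in cytosolic replicate 1 and from 12628 to 30144 in cytosolic replicate 2. In the nuclear libraries it went from 18378 to 41707 and from 12097 to 23411. These are log2 rises of 1.33 and 1.26 in the cytosol against 1.18 and 0.95 in the nucleus, lower in both nuclear libraries. With a mean difference of -0.23, this was also the largest fall of nuclear over cytosolic depth between adjacent positions of the segment. A second step at nt 79 raised relative depth by 0.452 and 0.339 in the cytosol against 0.351 and 0.222 in the nucleus, with values that overlapped between the fractions.

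At the very end of the RNA the order of the fractions was the opposite of that at nt 129 to 312. From nt 1 to nt 11 both nuclear libraries lay above both cytosolic ones, as at 44.0% of all listed positions and 18.4% of the rest of 28S. The last position of ITS2 had the same order, with 0.00106 and 0.00135 in the cytosol against 0.00177 and 0.00150 in the nucleus. ITS2 as a region was 3.18-fold higher in the nucleus (adjusted p = 0.00479 in limma), but its last window, next to 28S, did not share that excess. There relative depth was 0.000676 and 0.000887 in the cytosol against 0.000933 and 0.000783 in the nucleus. These values overlapped, with a ratio of the fraction means of 1.10 (adjusted p = 0.547 in limma). Relative depth at nt 1 was 0.00117 and 0.00138 in the cytosol against 0.00190 and 0.00162 in the nucleus, and the ratio of the fraction means peaked at 1.44 at nt 6. Up to nt 9 all 4 libraries lay below 0.01, the pseudocount of the window test, which damps differences at such depths. Depth over the first 50 nt relative to the last 50 nt of ITS2 was 210.9 and 126.1 in the cytosol against 158.1 and 118.8 in the nucleus. These ratios overlapped (log2 difference -0.25, with SDs of 0.53 and 0.29, exact permutation p = 0.667).

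**Figure D2:**
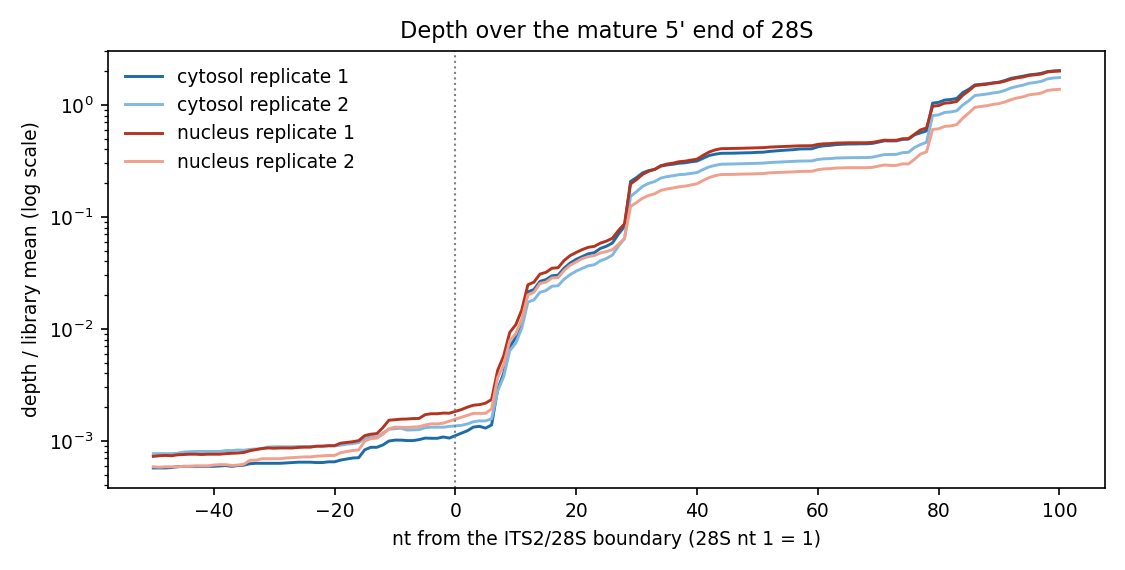
Depth relative to the library mean, on a log axis, over the last 50 nt of ITS2 and the first 100 nt of 28S in each of the 4 libraries. The dotted line is the ITS2/28S boundary; the curves pass it without a step and rise at about nt 7 to 12, at nt 29 and at nt 79.

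Among the 9 windows, 1 differed between the fractions and it was lower in the nucleus. The test was limma on log2 of relative depth plus 0.01, adjusted over 265 windows of all rRNAs. Of all 265 windows 55.1% passed, 37.7% higher and 17.4% lower in the nucleus, so 1 lower and 0 higher of 9 lies under this background. With an unadjusted p under 0.05, 3 windows of the segment were lower and 0 higher, beside 20.8% lower and 38.9% higher of all windows. The median log2 difference was -0.17 over the 9 windows, -0.22 over the 93 windows of the rest of 28S (39 lower, 6 higher) and 0.01 over all windows tested. The last value is no typical fold change, because the added 0.01 damps differences in spacer windows of low depth. At nt 751 to 800 of the 5' external spacer, for instance, the nucleus was 2.57-fold higher while the log2 difference was 0.02.

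The window that passed was nt 201 to 250, a trough of depth between taller stretches. Its relative depth was 2.91 and 2.66 in the cytosolic pair against 2.0 and 2.25 in the nuclear pair. Both nuclear values were below both cytosolic values. The fraction means were 2.79 ± 0.176 and 2.12 ± 0.176 (SD, n = 2), 1.31-fold lower in the nucleus. On the log2 scale this was -0.39 with an SE of 0.09, and limma gave an adjusted p of 0.0266. The call ended when depth was scaled to that of 28S (-0.20, adjusted p = 0.133 in limma), without a variance trend (adjusted p = 0.0629) and when cytosolic replicate 1 (-0.33, adjusted p = 0.113) or 2 (-0.46, adjusted p = 0.0604) was left out.

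The windows on either side were lower in both nuclear libraries as well but did not pass the threshold. At nt 151 to 200, which holds the first summit, relative depth was 4.05 and 3.39 in the cytosol against 3.03 and 2.93 in the nucleus. The log2 difference was -0.31 with an SE of 0.10 (adjusted p = 0.0738 in limma). At nt 251 to 300 it was 3.78 and 3.54 in the cytosol against 2.79 and 3.17 in the nucleus, a difference of -0.30 (SE 0.09, adjusted p = 0.0524). In both windows, as in the one between them, the fractions did not overlap. Of all windows, which include spacers and mitochondrial rRNAs, 32.8% were lower in the nucleus without overlap and 49.8% higher. Of 9 windows, 3 lower is near that share and 0 higher is under it. In the rest of 28S, 57 of 93 windows were lower without overlap and 19 higher, both larger shares than in the segment. Both windows passed with a pseudocount of 0.001, with a minimum depth of 100, with the median of ratios, or when only windows of the mature nuclear rRNAs were fitted. Scaled to the depth of 28S they shrank to -0.12 (adjusted p = 0.328 in limma) and -0.11 (adjusted p = 0.362). With 1 library left out, nt 151 to 200 ranged from -0.44 to -0.18 and passed except without cytosolic replicate 1, and nt 251 to 300 ranged from -0.39 to -0.21 and passed without nuclear replicate 2. At single positions the nuclear libraries were both below the cytosolic ones at 191 positions, 43.9% of the segment against 62.2% of the rest of 28S and 32.2% of all listed positions. They were both above at 35 positions, 8.05% of the segment against 18.4% of the rest of 28S and 44.0% of all listed positions. Of the 191 positions with both nuclear libraries below, 184 lay in the unbroken run from nt 129 to nt 312 printed above, which is 75.5% G+C. The lowest ratio of the fraction means was at nt 256, where the nucleus was 1.39-fold lower.

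In the first 3 windows the nuclear libraries lay apart from each other and the fractions overlapped. At nt 1 to 50 relative depth was 0.155 and 0.122 in the cytosol against 0.164 and 0.102 in the nucleus. At nt 51 to 100 it was 0.941 and 0.759 in the cytosol against 0.937 and 0.598 in the nucleus. At nt 101 to 150 it was 3.11 and 2.60 in the cytosol against 2.65 and 2.08 in the nucleus. In each of them nuclear replicate 2 was the lowest of the 4 libraries. Nuclear replicate 1 was the highest at nt 1 to 50 and lay between the cytosolic values in the other two. Nuclear replicate 1 was 1.62, 1.57 and 1.27 times as deep as replicate 2 in these windows, and 0.889 and 0.879 times as deep at nt 201 to 250 and nt 251 to 300. The log2 differences were -0.08, -0.17 and -0.28 (adjusted p of 0.848, 0.617 and 0.232 in limma). Their 95% intervals, the widest of which ran from -1.06 to 0.90 at nt 1 to 50, leave room for a change in either direction. Without nuclear replicate 1 the windows at nt 51 to 100 (-0.49, adjusted p = 0.0271) and nt 101 to 150 (-0.45, adjusted p = 3.1e-04) passed, with the single nuclear library left taken to vary like the others.

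The 3 windows toward ES7L had like depths in both fractions. At nt 301 to 350 relative depth was 3.84 and 3.41 in the cytosol against 3.25 and 3.52 in the nucleus, with a log2 difference of -0.10 (95% interval -0.34 to 0.15). At nt 351 to 400 it was 3.32 and 2.98 in the cytosol against 3.29 and 3.27 in the nucleus (0.06, -0.14 to 0.26). In the last window, from nt 401, it was 2.27 and 2.19 in the cytosol against 2.29 and 2.25 in the nucleus (0.02, -0.11 to 0.15). The fractions overlapped in all 3 windows and none passed (adjusted p of 0.401, 0.498 and 0.695 in limma). The last 2 passed as higher in the nucleus once libraries were scaled to the mean depth of 28S, by 0.25 (adjusted p = 0.0327) and 0.21 (adjusted p = 0.0149). That scaling adds 0.19 to every nuclear over cytosolic log2 ratio before the pseudocount, and under it 0 windows of the segment were lower (0 at an unadjusted limma p under 0.05) and 2 were higher. The 50 nt directly after the segment, the start of the ES7L region, were at 1.74 and 1.86 in the cytosol against 1.47 and 1.47 in the nucleus, lower in the nucleus by 0.29 on the log2 scale (adjusted p = 0.0189).

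**Figure D3:**
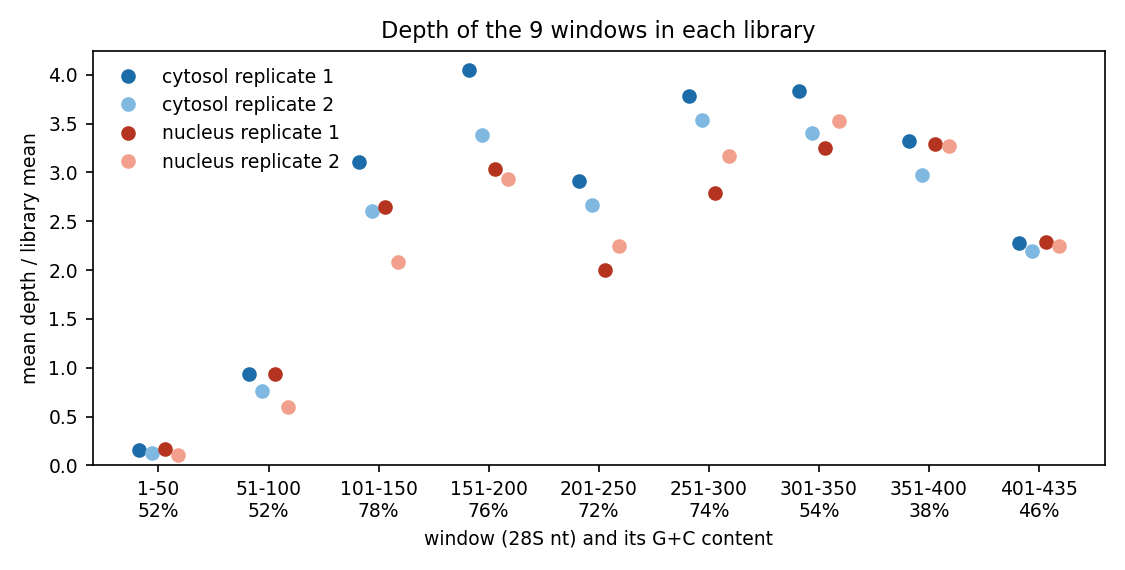
Mean depth of each window relative to the library mean, 1 point per library, with the window's position and its G+C content on the horizontal axis. From nt 151 to nt 300 both nuclear points lie below both cytosolic points, and in the first 3 windows nuclear replicate 2 is the lowest.

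**Figure D4:**
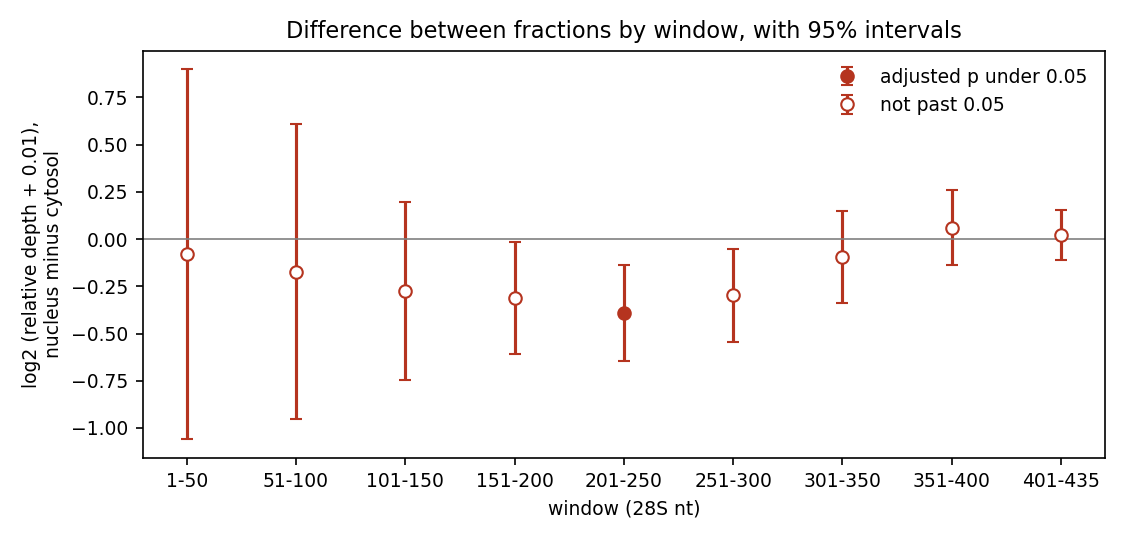
Log2 difference between the fractions in each window (nucleus minus cytosol, limma, 2 libraries each) with 95% intervals, filled where the adjusted p is under 0.05. The intervals narrow along the segment, and the filled point at nt 201 to 250 is the lowest, at -0.39.

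Within the segment the differences were ordered largely as the base composition of the windows. G+C was 52% in the first 2 windows, 72% to 78% in the 4 windows from nt 101 to nt 300, 54% at nt 301 to 350, 38% at nt 351 to 400 and 45.7% in the last. The 4 windows of highest G+C were the 4 with the lowest nuclear over cytosolic difference, and the one of lowest G+C had the highest. Across the 9 windows Spearman's rho between G+C and the log2 difference was -0.82 (Pearson's r -0.93), given as a description because neighbouring windows share reads and all windows share the same 4 libraries. Across the 93 windows of the rest of 28S rho was -0.13. There the median difference was -0.27 in the 50 windows of at least 70% G+C and -0.18 in the 25 windows under 60%. The part of base composition in the differences was not tested.

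The shape of the profile was shared by the 4 libraries. Pearson's r of relative depth over the positions of the segment was 0.994 between the cytosolic libraries, 0.966 between the nuclear ones and 0.950 to 0.970 between fractions, where neighbouring positions share reads. Depth rose to a first summit at nt 164, fell to a trough around nt 222 to 255, rose to a summit at nt 284 and to another between nt 330 and nt 341, and peaked once more at nt 394. The summits at nt 164, nt 284 and nt 394 lay at the same nucleotide in every library. At nt 164 relative depth was 4.64 and 3.86 in the cytosol against 3.62 and 3.24 in the nucleus. At nt 394 it was 3.61 and 3.30 in the cytosol against 3.61 and 3.57 in the nucleus, so the lower nuclear values of the first summit were not seen at the last. The mean depth of the first 200 nt over that of the remainder was 0.628 and 0.572 in the cytosol against 0.616 and 0.487 in the nucleus, which overlapped (log2 difference -0.13, exact permutation p = 0.667). The deepest position of the segment was nt 164 in cytosolic replicate 1, nt 330 in cytosolic replicate 2 and nt 341 in both nuclear libraries.

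**Figure D5:**
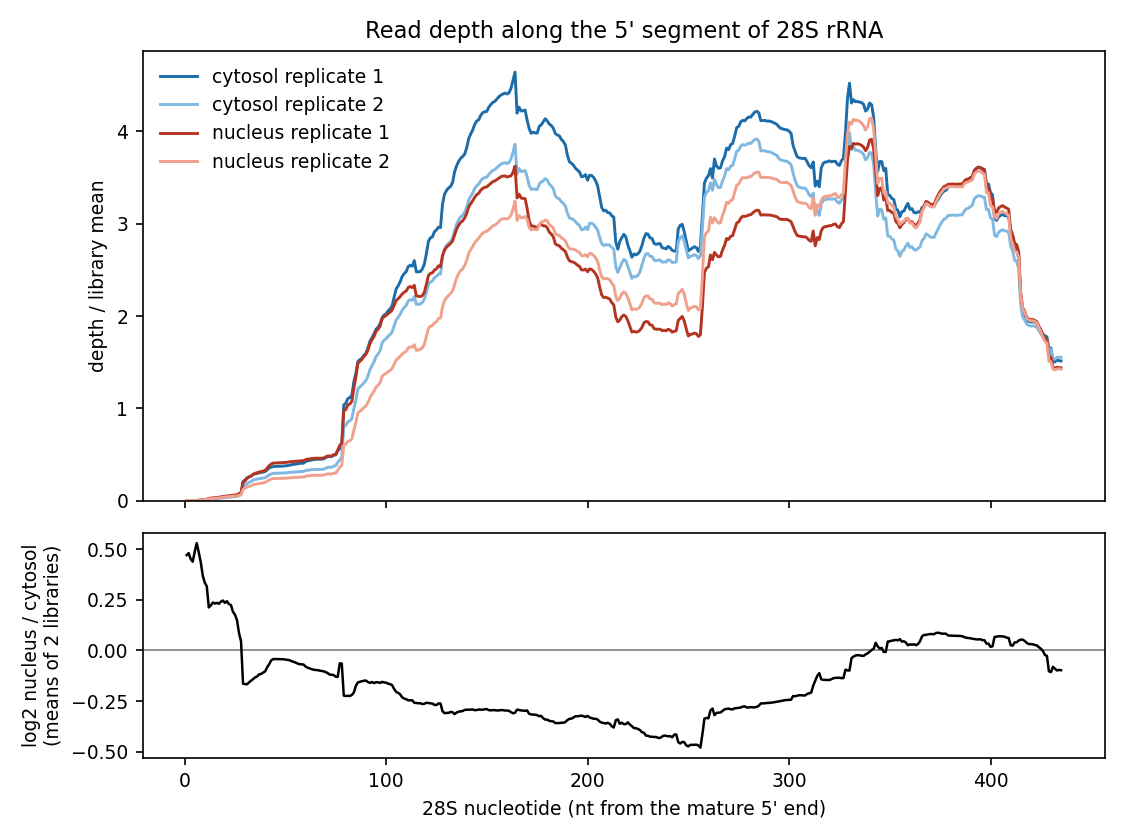
Upper panel, depth at each nucleotide of the segment relative to the library mean in the 4 libraries; lower panel, log2 ratio of the nuclear to the cytosolic mean. The curves keep their summits at nt 164, nt 284 and nt 394, and the ratio falls to its lowest value at nt 256 and returns to about 0 beyond nt 341.

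Abrupt steps from one nucleotide to the next also recurred. Of the 10 largest rises of relative depth in each library 6 were common to all 4, at nt 79, nt 257, nt 258, nt 328, nt 329 and nt 330. Of the 10 largest falls 5 were common, at nt 165, nt 313, nt 343, nt 344 and nt 415. If every read is counted over its whole length, a rise means that more reads began than ended there. The filters behind the depth were not given, and the origin of the steps was not tested. The step at nt 258, within a run of C and G letters, was 0.354 and 0.343 in the cytosol against 0.372 and 0.428 in the nucleus. As a log2 rise it was 0.16 in each cytosolic library against 0.24 and 0.23 in the nucleus, the largest rise of nuclear over cytosolic depth in the segment. The step at nt 165 was -0.444 and -0.324 in the cytosol against -0.346 and -0.208 in the nucleus, with overlapping values. The fall at nt 415 was the steepest in the segment on the log2 scale in every library, from 2.62 to 2.19 in cytosolic replicate 1 and from 2.51 to 2.12 in cytosolic replicate 2. In the nuclear libraries it ran from 2.69 to 2.25 and from 2.62 to 2.22. From nt 415 to nt 423 both nuclear libraries lay above both cytosolic ones, and over the last 7 nt of the segment both lay below. Such orders are common, with 44.0% of all listed positions above and 32.2% below, and 18.4% and 62.2% of the rest of 28S.

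The fall at nt 415 lies just ahead of the stretch that could pair with 5.8S, nt 420 to 430 of 28S with nt 4 to 14 of 5.8S. This stretch of 11 pairs (10 Watson-Crick, 1 G-U) was the longest of 120 gapless stretches of at least 6 pairs between the segment and 5.8S. The next were 10 pairs at nt 152 to 161 and, first of 4 of equal length, 9 pairs at nt 41 to 49. Such lengths are common: 8 of 10 other stretches of 28S of the same length held a match of at least 11 letters to 5.8S. The match is a description of the letters and not a measured contact.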

How the data were processed

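The deposited values are coverage: the signal at a position is the whole number of reads over it, unscaled, as the file headers and the values show. The submitters' processing notes list SAMtools, Bowtie2 2.2.6 and cutadapt 1.5. Their settings, the filters, the read length and the strand rule were not given in the sources used here. Neighbouring positions share reads, which is why no count model was used. The segment is 28S nt 1 to 435. Region limits inside the precursor are the textbook ends of the mature rRNAs.

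Depth was divided by each library's mean over all listed positions. Windows of 50 nt were counted from the start of each region, and a last piece under 25 nt joined the window before. A window needed a mean depth of 10 or more in 2 or more libraries to be tested (limma 3.58.1 in R 4.3.3, two-sided, mean-variance trend, Benjamini-Hochberg, threshold 0.05, on log2 with a pseudocount of 0.01, worth 1890 to 2117 reads). The 11 regions were fitted without a trend or pseudocount. Ratios within a library used a two-sided exact permutation test (scipy 1.17.1). The fit was also run on simulated data, with independent noise in each window and imposed changes larger than those of the segment. Real windows share reads, so that run does not check the calls given here. All 9 windows are named; named single positions are the extremes and steps of each library, and shared steps, window summits and G+C comparisons were added after their values were seen. The members and lists were chosen with earlier results of these data known. Alternatives were other scalings, pseudocounts, filters, window sizes, medians, a replicate block and leaving out each library.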

Additional observations from a re-analysis of the deposited data

How the results depend on the processing

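The count of segment windows lower in the nucleus, 1 of 9, moved with most choices. It was 3 with the median of ratios (which adds -0.23 to log2 ratios), with a pseudocount of 0.001 and with only the mature nuclear rRNAs, and 4 with a minimum depth of 100. It was 0 when scaled to 28S or to the segment itself (0 at an unadjusted limma p under 0.05 in both) and without a variance trend (1 at that p). Leaving out 1 library gave 0 to 4. Windows of 100 nt placed 100 nt among lower calls in place of 50, and windows of 25 nt 75. The count of higher windows, 0, became 2 when scaled to 28S and 1 when scaled to the segment. The whole segment passed with a variance trend across regions (-0.19, adjusted p = 0.0289 in limma).

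With the replicate number as a block, 4 windows were lower, and the segment as a whole had an adjusted p of 0.258. Same-numbered libraries correlated at 0.12 in their deviations over 265 windows of all rRNAs, a value that does not describe the segment alone. Within the segment the log2 gap of replicate 1 over 2 was largest at nt 1 to 50 in both fractions, 0.34 in the cytosol and 0.69 in the nucleus. At nt 251 to 300 it was 0.10 and -0.19. With only 2 pairs the numbers are not taken to pair the libraries. Over single windows and settings, 109 of 135 values kept their side of the threshold, 21 passed where the main value did not, 5 no longer passed, and no value past the threshold changed sign. When 1 library was left out, 3 ratios that overlapped between the fractions changed sign: to the rest of 28S (-0.07 to 0.08), of the first 50 nt to the end of ITS2 (-0.62 to 0.12, and 0.09 with medians over positions) and of the first 200 nt to the remainder (-0.30 to 0.04). The number of libraries, 2 per fraction, limits the precision; counting error was not compared with the spread between libraries.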
